A study of Mus musculus with 3 samples.

Results

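The comparison set cells that carried both PDGFRa and Sca-1 (PDGFRa+Sca-1+, called double-positive here) against cells that carried neither (PDGFRa-Sca-1-, double-negative), and used 2 of the 3 arrays of the study, chosen by their labels. All cells came from femur and tibia fragments of C57BL/6 mice digested with collagenase, and all 3 populations were negative for CD45, CD31 and Ter119, surface proteins of blood, endothelial and red blood cells. Age, sex, the number of animals and any pooling were not given in the sources used here. The third population, PDGFRa+Sca-1-, is quoted for its level only, so signals below are given in the order double-negative, PDGFRa+Sca-1-, double-positive. The RNA went through the Affymetrix two-cycle labelling, which amplifies small amounts, and each population was hybridised to 1 array. No difference below therefore has a replicate check or a test.

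PDGFRa, a receptor tyrosine kinase, marks many mesenchymal cells, and together with Sca-1, an anchored protein of the cell surface, it is used to enrich stromal progenitors from bone. Cells along the bone surface draw their energy, sterols and building blocks through pathways that differ in how they use glucose, fatty acids and amino acids. Transporters and receptors set what a cell takes up and which signals it can read, and transcription factors mark its lineage.

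The labels were read first. Pdgfra gave signals of 587, 2420 and 12850, a 21.9-fold difference between the compared arrays, and its 3 probe sets had log2 ratios between 3.35 and 4.83. It was thus above the floor in the cells sorted as PDGFRa negative. The floor, a signal of 93.2, is the mean of the array medians, and lower signals were raised to it. Ptprc, which encodes CD45, and Pecam1, which encodes CD31, lay under it on every array. Ly6a, which encodes Sca-1, is not analysed here. Signals were above the floor for 10846 to 11042 genes per array. The ratio of 3' to 5' control probe sets was 4.65 for Actb in double-positive and 2.99 in double-negative cells, and 4.73 against 3.93 for Gapdh. How far this difference in RNA or amplification bears on the ratios below was not tested.

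Of 18193 genes with a value, 11843 exceeded the floor in double-positive cells, double-negative cells or both. Of these, 1713 were at least 2-fold higher in double-positive cells (14.5%) and 1443 at least 2-fold lower (12.2%), or 26.6% in either direction. The rest, 8687 genes, were within 2-fold, and the median log2 ratio over all genes compared was 0.03. For 310 of the higher and 343 of the lower genes the dimmer array was under the floor, so only a lower bound of the ratio is known, written "at least". A 10-fold ratio was reached by 177 genes in the upward direction and by 124 in the downward direction. Different probe sets of a gene were the only repeated measurement. The SD of their log2 ratios was 0.58 over 5396 genes, and of 1503 differing genes with several probe sets, 1341 (89.2%) had all of them on one side of 0 but only 670 (44.6%) had all of them past 2-fold. In sorted bulk cells, fewer cells of a type and less RNA per cell cannot be told apart.

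On the PDGFRa+Sca-1- array, 1149 of the 1713 genes higher in double-positive cells lay between the compared arrays, 524 below both and 40 above both. Among the 1443 lower genes, 925 lay between, 441 above both and 77 below both.

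The genes were then read by class. Transporters and channels were higher for 56 and lower for 72 of 407 genes compared (13.8% and 17.7%), and metabolic enzymes for 100 and 101 of 608 (16.4% and 16.6%). Transcription factors were higher for 79 and lower for 68 of 471 (16.8% and 14.4%). These shares lay within 6 percentage points of those of all genes. Receptors were higher for 80 and lower for 65 of 305 (26.2% and 21.3%), with Pdgfra, the sort marker, 1 of the 80. Thus 47.5% of receptors, against 26.6% of all genes, were past 2-fold. However, 98 of the 305 receptors were above the floor on only 1 compared array, against 1814 of 11843 genes. Such genes are counted through the array where they are brighter, and their part in the receptor share was not tested. Within each class the lists differed much more than the class totals, and each list's count below is to be read against 14.5% higher and 12.2% lower.

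**Figure D1:**
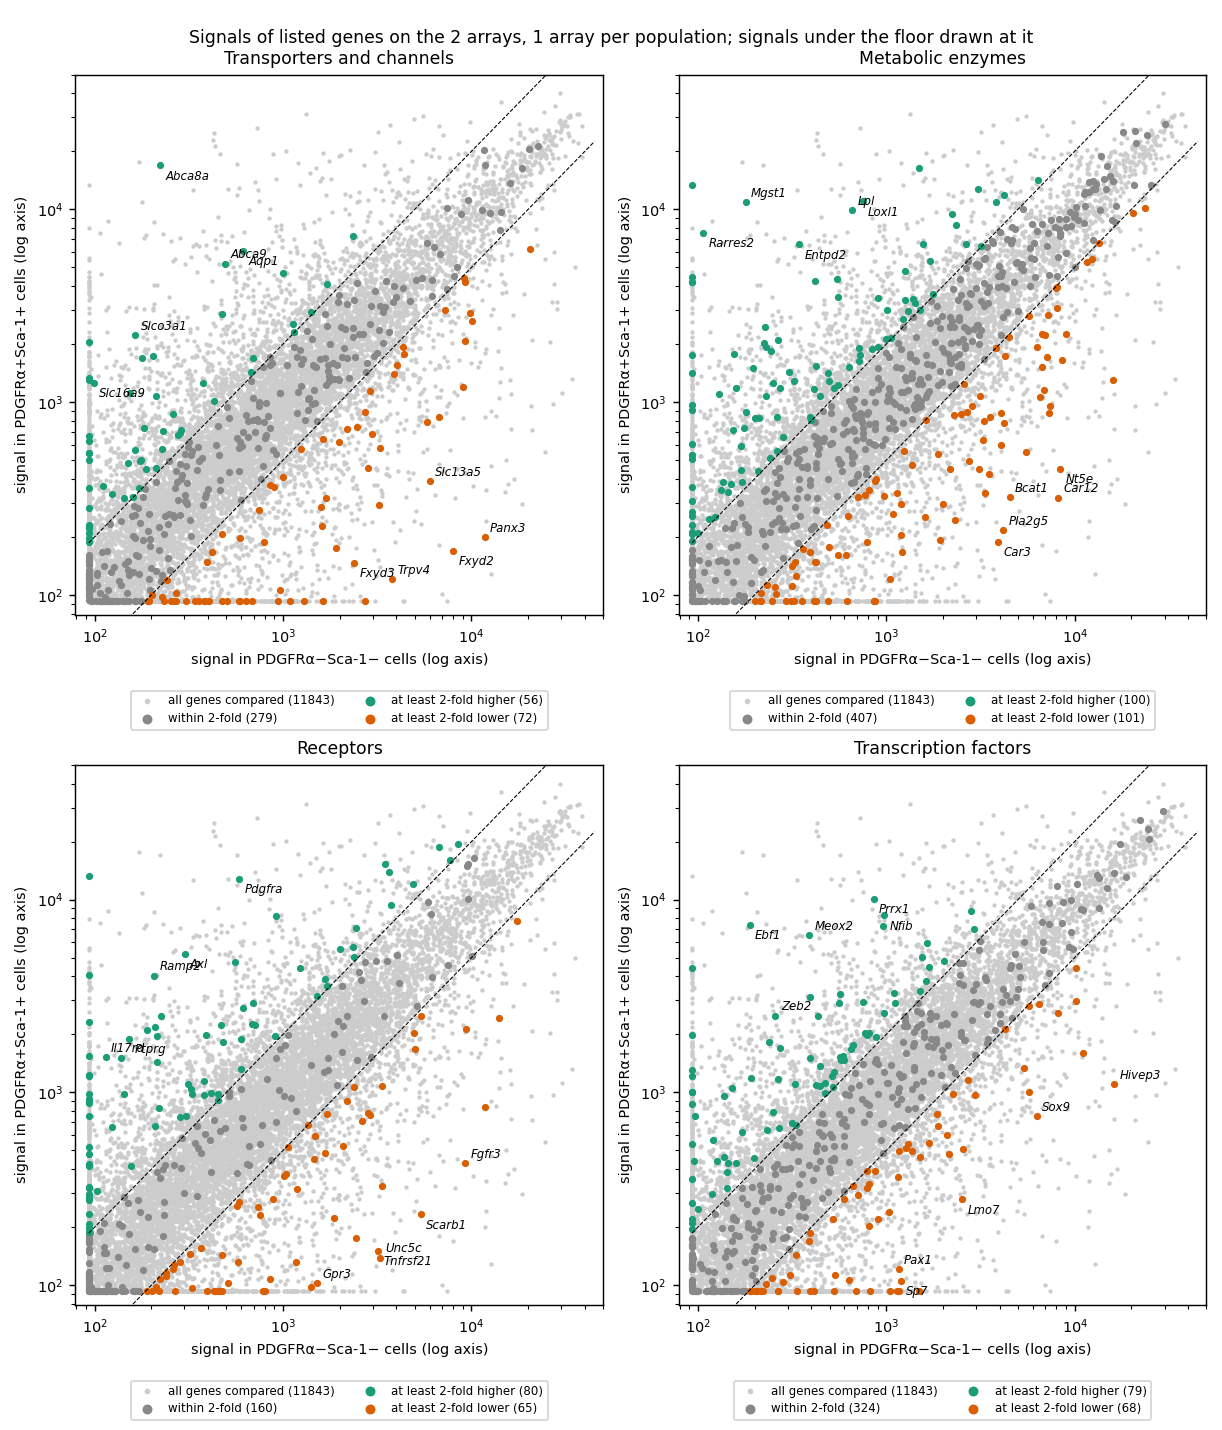
Signal in double-positive cells (vertical, log axis) against double-negative cells (horizontal, log axis) for all 11843 genes compared (light grey) and the listed genes of each class, with 1 array per population. Dashed lines mark 2-fold, coloured points are the genes past it, and signals under the floor are drawn at the floor; in each panel listed genes lie on both sides of the diagonal.

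**Figure D2:**
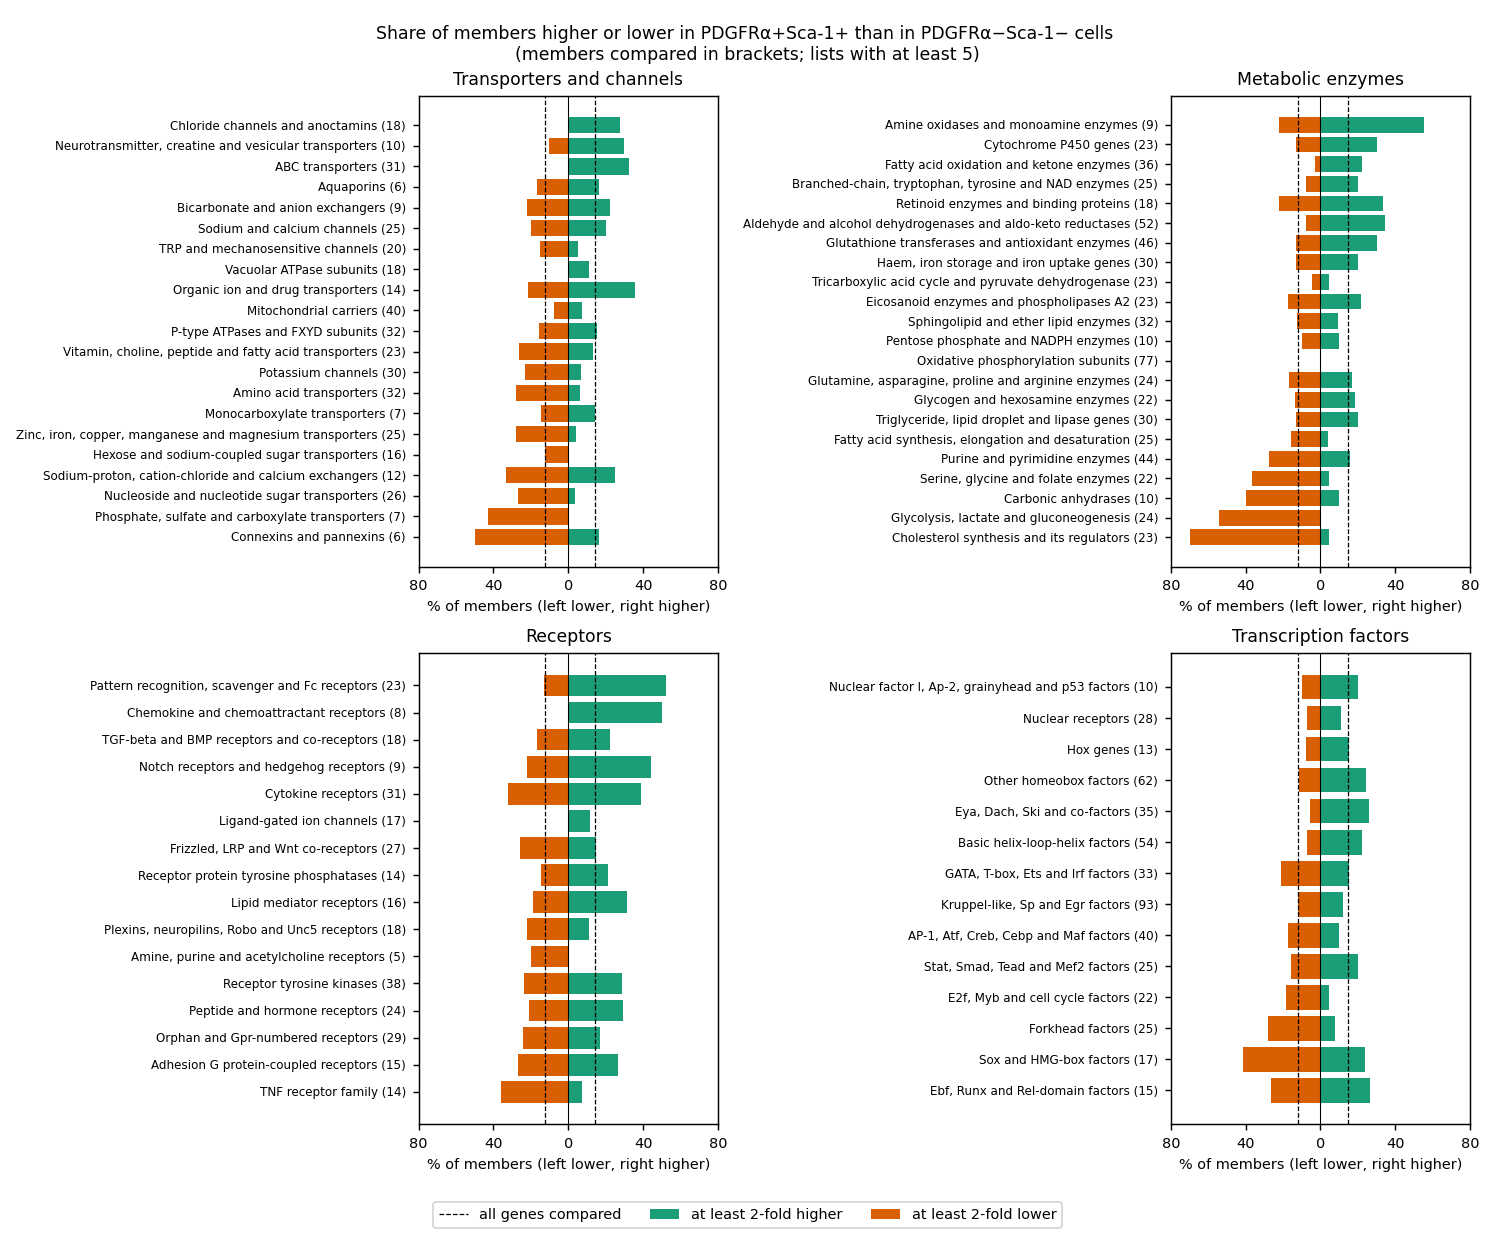
Share of the compared members of each list of the 4 classes (marker and reference lists are not drawn) that were at least 2-fold higher (right) or lower (left) in double-positive cells, with the number compared in brackets. Dashed lines mark the shares over all genes, 14.5% and 12.2%; of the lists drawn, cholesterol synthesis reaches furthest to the left, at 69.6%, and oxidative phosphorylation has no bar.

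The list with the largest share past 2-fold in 1 direction among the metabolic lists was that of cholesterol synthesis. Of 23 genes compared, 16 were lower in double-positive cells (69.6%, against 12.2% of all genes), 1 was higher and 6 lay within 2-fold; the median of the list was -1.79 on the log2 scale, against 0.03 over all genes. The count of lower genes was 13 to 16 under the alternative settings, and the median lay between -1.91 and -1.17. In 13 of the 16 the PDGFRa+Sca-1- signal was the highest of the 3.

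Along the pathway, Hmgcs1, which joins acetyl groups at its start, gave signals of 23620, 27030 and 10120 and was 2.33-fold lower in double-positive cells, with the highest of its 5 probe sets at 0.23. Pmvk, the phosphomevalonate kinase, gave 1991, 2196 and 296 (6.74-fold lower). Its neighbour Mvk was within 2-fold, at 247, 332 and 234. The isoprenoid enzymes Mvd, Idi1, Fdps and Fdft1 were 3.45-fold, 4.01-fold, 3.38-fold and 4.15-fold lower. Sqle, the squalene epoxidase, gave 8557, 10950 and 1650, a 5.18-fold difference. Lss, which closes the sterol rings, gave 1610, 2257 and 254 (6.33-fold), with its other probe set at a log2 ratio of -1.33. Cyp51, the lanosterol demethylase, gave 4065, 5441 and 599 (6.78-fold), and all 3 of its probe sets were past 2-fold. Msmo1, which removes the next methyl groups, was the lowest enzyme by ratio, at 7282, 11520 and 876 (8.32-fold), although its other probe set was at -0.86.

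The last steps were less uniform. Sc5d gave 4199, 6124 and 775 (5.42-fold lower), but its 3 probe sets ran from -2.44 to 0.52. Hsd17b7 and Dhcr7 were 4.39-fold and 4.05-fold lower, the former with a probe set at -0.17, whereas Ebp, Nsdhl and Tm7sf2 were within 2-fold, with log2 ratios from -0.76 to -0.28. Stard4, which carries cholesterol between membranes, gave 2320, 5398 and 245 and was 9.47-fold lower, with each of its 3 probe sets past 2-fold. The regulators divided. The sterol sensor gene Insig1 was 3.0-fold lower and Insig2 2.07-fold higher, the latter within 2-fold when arrays were scaled to a common median. Srebf1 gave 5719, 1544 and 2802 (2.04-fold lower), while Srebf2, the main activator of this pathway, was within 2-fold at 438, 525 and 621. Beyond Stard4, Msmo1, Cyp51, Pmvk, Hsd17b7, Insig2, Srebf1 and the bright Ebp, the genes of this pathway were added after their values were seen, to show its steps.

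The promoters of 4 of these genes are shown because most of the list lay on one side and sterol genes are known to be read through sterol and CCAAT elements. Each window runs from 250 bases before to 50 after the gene start, as given by RefSeq on GRCm38.p6, written 5' to 3' on the gene's strand: Hmgcs1 at chr13:119690101-119690400 (+), Cyp51 at chr5:4104648-4104947 (-), Lss at chr10:76531355-76531654 (+) and Msmo1 at chr8:64733529-64733828 (-). Capitals mark CCAAT on either strand (read ATTGG on the other) and TCACNCCAC, searched here as a sterol element.
Hmgcs1: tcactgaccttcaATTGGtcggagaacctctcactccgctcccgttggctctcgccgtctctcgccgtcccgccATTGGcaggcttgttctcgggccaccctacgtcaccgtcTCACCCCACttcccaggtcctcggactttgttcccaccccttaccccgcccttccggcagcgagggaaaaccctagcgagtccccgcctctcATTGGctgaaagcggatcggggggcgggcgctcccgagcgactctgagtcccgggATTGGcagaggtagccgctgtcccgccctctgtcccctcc
Cyp51: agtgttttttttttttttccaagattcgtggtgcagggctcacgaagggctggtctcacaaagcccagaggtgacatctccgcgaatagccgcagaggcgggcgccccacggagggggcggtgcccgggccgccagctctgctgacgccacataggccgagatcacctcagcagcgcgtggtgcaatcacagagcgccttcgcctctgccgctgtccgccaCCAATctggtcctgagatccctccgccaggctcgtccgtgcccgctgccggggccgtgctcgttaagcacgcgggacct
Lss: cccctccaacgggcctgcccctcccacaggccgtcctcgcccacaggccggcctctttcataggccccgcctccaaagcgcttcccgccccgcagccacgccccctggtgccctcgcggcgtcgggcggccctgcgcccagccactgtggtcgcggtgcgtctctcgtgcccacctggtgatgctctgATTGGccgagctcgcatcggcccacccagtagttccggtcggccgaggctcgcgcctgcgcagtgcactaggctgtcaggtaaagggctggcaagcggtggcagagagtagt
Msmo1: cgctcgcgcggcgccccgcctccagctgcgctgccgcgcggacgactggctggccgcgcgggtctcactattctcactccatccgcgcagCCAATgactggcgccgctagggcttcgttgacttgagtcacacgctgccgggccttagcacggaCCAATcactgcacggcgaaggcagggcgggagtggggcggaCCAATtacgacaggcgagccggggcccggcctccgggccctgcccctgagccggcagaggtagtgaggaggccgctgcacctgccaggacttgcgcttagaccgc
CCAAT occurred 4 times in the Hmgcs1 window, 3 times in that of Msmo1 and once in each of the others. Windows were found for 19 genes of the list, and 17 of them (89.5%) held CCAAT on either strand, against 37.4% of all 32851 promoter windows. The share was similar for members that differed and members that did not, at 11 of 12 lower genes and 5 of 6 genes within 2-fold. TCACNCCAC was found in 1 of the 19, Hmgcs1, and in 1.24% of all windows. A match describes these letters only.

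Glycolysis and lactate genes were also lower in double-positive cells, for 13 of 24 compared (54.2%, against 12.2% of all genes), while 0 were higher and 11 lay within 2-fold; the list's median was -1.09 on the log2 scale, and without shared probe sets 7 of 14 were lower. Pfkfb3, whose product makes the activator of phosphofructokinase, gave 3355, 1249 and 340, a 9.87-fold difference, and its other probe set was at -1.08. The glucose transporter Slc2a1 gave 9243, 12410 and 2068 (4.47-fold lower), with its 3 probe sets between -2.16 and -2.03. Hk1, the hexokinase that traps glucose, gave 6938, 5251 and 2241 (3.10-fold), but Hk2 did not differ by 2-fold, at 8369, 7970 and 7536. Fbp1, an enzyme of glucose synthesis, was at least 6.63-fold and Aldoc at least 4.53-fold lower. Pdk1, which brakes the entry of pyruvate into mitochondria, gave 2842, 2443 and 955 (2.98-fold). The abundant enzymes lay near the threshold: Tpi1 (10070, 5308 and 5040) ended just short of 2-fold and Ldha (16540, 12990 and 10430) had a log2 ratio of -0.67. The phosphofructokinase subunit Pfkl was 5.53-fold lower by its brightest probe set, which may be read by several transcripts, and its log2 ratio was 0.58 without probe sets of that kind. Pfkl is thus not settled in direction.

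Oxidative phosphorylation stood apart from these lists. All 77 subunit genes compared lay within 2-fold (median -0.02 on the log2 scale), where 26.6% of all genes were past 2-fold. Uqcrb of complex III gave 21200, 23850 and 22000, and the ATP synthase subunit gene Atp5g3 gave 16010, 16170 and 13980. Under 4 alternatives 1 subunit gene was past 2-fold and lower. Of 23 genes of the tricarboxylic acid cycle and pyruvate dehydrogenase, 21 were within 2-fold. Glud1, which feeds glutamate into the cycle, was 2.21-fold higher, at 6384, 5365 and 14140, with its other probe set within 2-fold at 0.79, and the pyruvate dehydrogenase phosphatase gene Pdp2 was 2.80-fold lower. Of 47 ribosomal protein genes, read as another reference, 43 lay within 2-fold (median -0.26), as did 34 of 38 proteasome subunits. The proteasome exceptions included Psmb8, Psmb9 and Psmb10, the subunits of the immunoproteasome, which were at least 4.78-fold, at least 2.17-fold and 2.06-fold higher.

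Most fatty acid oxidation genes, 27 of 36, were within 2-fold. Of the others, 8 were higher in double-positive cells (22.2%, against 14.5% of all genes) and 1 lower (2.78%, against 12.2%). The median log2 ratio of the list was 0.43. Cpt1a, which admits fatty acids into mitochondria, gave 230, 279 and 1082 and was 4.71-fold higher, with its 3 probe sets between 1.42 and 2.98. The peroxisomal Crot gave 249, 348 and 1250 (5.01-fold), and the thiolase gene Acaa2 gave 274, 289 and 1186 (4.34-fold), though one of its probe sets had a ratio of only 0.62. Bdh2 was at least 5.71-fold higher and Bdh1, a mitochondrial ketone enzyme, at least 2.28-fold lower. Triglyceride and lipase genes were higher for 6 (20%) and lower for 4 (13.3%) of 30, near the shares of all genes, with a median of -0.16. Lpl, which frees fatty acids from lipoproteins, was 15-fold higher (661, 1251 and 9906). The lysosomal Lipa was 4.66-fold higher, with its lowest probe set at 0.55, and Fabp5, a fatty acid carrier, 4.58-fold lower. Fatty acid synthesis had 1 gene higher and 4 lower of 25 (16% lower, near the 12.2% of all genes). Fads2, a desaturase, gave 3522, 981 and 422 (8.35-fold lower), and Fasn, the fatty acid synthase, gave 6678, 3254 and 2260 (2.96-fold lower). The desaturases Scd1 and Scd2 were within 2-fold, at log2 ratios of -0.63 and -0.94, by their brightest probe sets, and each had another past it, at -1.03 and -1.72.

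**Figure D3:**
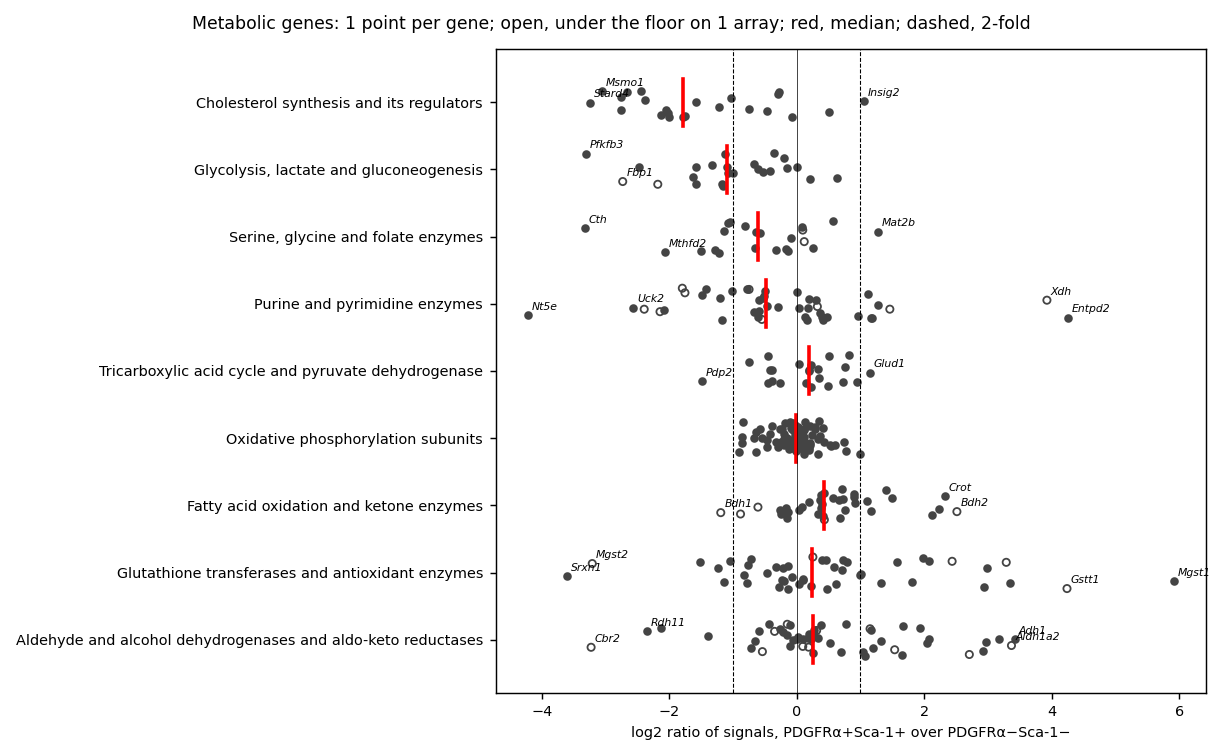
Log2 ratio of signals, double-positive over double-negative cells, for the genes of 9 metabolic lists, with 1 point per gene, open where 1 array was under the floor, a red bar at the median of the list and dashed lines at 2-fold. The medians run from -1.79 for cholesterol synthesis and -1.09 for glycolysis through -0.02 for oxidative phosphorylation to 0.43 for fatty acid oxidation.

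Enzymes that oxidise, reduce or conjugate small molecules were more often higher than lower. Of 52 aldehyde and alcohol dehydrogenases and aldo-keto reductases, 18 were higher (34.6%, against 14.5% of all genes) and 4 lower. Adh1, an alcohol dehydrogenase, gave 228, 1104 and 2446 (10.7-fold higher). The retinal dehydrogenases Aldh1a1 (225, 188 and 2030, 9.01-fold) and Aldh1a2 (at least 10.3-fold) make retinoic acid. Hsd11b2, which inactivates glucocorticoids, was at least 6.53-fold higher. Cbr2 was at least 9.35-fold and the retinol dehydrogenase Rdh11 5.09-fold lower.

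Cytochrome P450 genes were higher for 7 and lower for 3 of 23. Cyp1b1, an oxidase of steroids and aromatic compounds, gave 34.1, 129 and 4206 and was at least 45.1-fold higher. Cyp2f2 gave 50.9, 376 and 4199, likewise at least 45.1-fold. Amine oxidases were higher for 5 and lower for 2 of 9. Aoc3, a surface amine oxidase, was at least 47.8-fold higher, and the collagen cross-linking enzyme gene Loxl1 gave 749, 673 and 11010 (14.7-fold). Its relative Loxl4 was 7.20-fold lower, at 1209, 8576 and 168, so enzymes of 1 family lay at opposite ends.

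Glutathione transferases and antioxidant enzymes were higher for 14 of 46 genes (30.4%, against 14.5%) and lower for 6. Mgst1, a membrane-bound glutathione transferase, gave 180, 568 and 10870, a 60.5-fold difference seen by 1 probe set, the only one above the floor. Gstt1 was at least 18.9-fold higher and the extracellular superoxide dismutase gene Sod3 10.2-fold, at 419, 344 and 4273. Gstm1 was 7.91-fold and Gstm2 at least 9.76-fold higher. These neighbours are close copies, so their probe sets may share signal. Srxn1, which repairs oxidised peroxiredoxins, went the other way at 15920, 6739 and 1309 (12.2-fold lower), with all 4 probe sets past 2-fold. Mgst2 was at least 9.23-fold lower, and the glutathione and quinone reductases Gsr and Nqo1 were 2.34-fold and 2.06-fold lower, the other Gsr probe set being at -0.96. The promoters at both ends, Mgst1 at chr6:138140277-138140576 (+), the first of its 2 RefSeq windows, and Srxn1 at chr2:152105274-152105573 (+), are shown because both hold TGACNNNGC, the core of the antioxidant response element, in capitals on either strand.
Mgst1: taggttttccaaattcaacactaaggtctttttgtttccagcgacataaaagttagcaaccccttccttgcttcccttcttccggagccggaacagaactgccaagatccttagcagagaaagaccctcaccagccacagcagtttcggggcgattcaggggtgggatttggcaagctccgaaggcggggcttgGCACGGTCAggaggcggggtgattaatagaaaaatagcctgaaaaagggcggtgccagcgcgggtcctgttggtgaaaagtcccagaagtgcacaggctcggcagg
Srxn1: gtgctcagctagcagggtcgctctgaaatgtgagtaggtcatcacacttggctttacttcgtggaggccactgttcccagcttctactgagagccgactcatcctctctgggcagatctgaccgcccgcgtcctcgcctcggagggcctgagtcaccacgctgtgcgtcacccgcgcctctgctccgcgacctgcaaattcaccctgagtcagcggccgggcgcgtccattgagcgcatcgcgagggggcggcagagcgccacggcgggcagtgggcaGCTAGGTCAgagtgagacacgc
This core was found in 7 of 50 genes of the list with a window (14%) and in 12.4% of all windows. It was present in 1 of 10 higher and 1 of 5 lower genes.

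Enzymes of the serine, glycine and folate list were lower for 8 of 22 genes (36.4%, against 12.2% of all genes) and higher for 1, with a median log2 ratio of -0.61. Cth, which makes cysteine, gave 1920, 1498 and 192 (a log2 ratio of -3.32), and the mitochondrial folate enzyme gene Mthfd2 gave 3314, 1381 and 796 (4.16-fold). With the floor at the 67th percentile 4 genes were lower. Among the other amino acid enzymes, Glul, the glutamine synthetase, gave 3059, 1811 and 12710 (4.16-fold higher). Bcat1, which transaminates branched-chain amino acids, gave 4510, 1322 and 322 (14-fold lower). Nnmt, which methylates nicotinamide, gave 155, 764 and 1777 (11.4-fold higher). The amino acid and NAD lists as wholes had counts on both sides, with 4 against 4 and 5 against 2.

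Nucleotide enzymes were lower for 12 of 44 (27.3%, against 12.2% of all genes) and higher for 7 (15.9%, against 14.5%). With the floor at the 67th percentile these became 7 and 4 of 40. At the cell surface, Entpd2, which splits ATP, gave 344, 250 and 6577 (19.1-fold higher), while Nt5e, which makes adenosine from AMP, gave 8355, 9038 and 450 (18.6-fold lower, with its other probe set at -2.01). Inside the cell, Xdh, the xanthine dehydrogenase, was at least 15.2-fold higher. The uridine kinase gene Uck2 was 5.91-fold lower with all 5 probe sets past 2-fold, and Rrm2, the reductase subunit that supplies DNA precursors, gave 3556, 722 and 837 (4.25-fold). Rrm2 is also a gene of dividing cells, a list that was lower as a whole and is given below.

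Iron genes included the largest bound of the comparison. Scara5, a receptor for ferritin, gave 70.3, 575 and 13290 and was at least 143-fold higher in double-positive cells. Its second probe set was not above the floor on either compared array. The transferrin receptor gene Tfrc gave 6574, 1752 and 1063 (6.18-fold lower), though its other probe set was within 2-fold at -0.96. Tfrc is also an erythroid marker, and 5 of 10 such markers were lower; their part in its ratio was not tested. The metalloreductase genes split, with Steap4 4.24-fold and Steap3 4.92-fold higher and Steap1 9.97-fold lower, at 5517, 4594 and 553. The iron exporter gene Slc40a1 was 4.21-fold lower, with its other probe set at -0.48. In all, 6 of 30 iron and haem genes were higher (20%) and 4 lower (13.3%), close to the 14.5% and 12.2% of all genes.

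Smaller lists held single large differences. Among carbonic anhydrases, Car12 gave 8181, 1529 and 319 (25.6-fold lower) and Car3 gave 3932, 25820 and 188 (20.9-fold lower), and 4 of 10 were lower. In the eicosanoid list, with 5 of 23 higher and 4 lower, the secreted phospholipase gene Pla2g5 was 19.2-fold lower, at 4165, 954 and 217, and Ptgr1, which reduces leukotrienes and prostaglandins, 6.29-fold higher. The rate-limiting Ptgs2 was within 2-fold, at 7481, 15210 and 8750. Rarres2, the chemerin gene, placed here in the list of retinoid enzymes and binding proteins, gave 107, 415 and 7575 (71.1-fold higher). Its other probe set was at 4.77. Plpp3, which dephosphorylates lysophosphatidic acid outside the cell, gave 1488, 2486 and 16370 (11-fold higher), and the neutral sphingomyelinase gene Smpd3 gave 7414, 10940 and 956 (7.75-fold lower). Gyg, which primes glycogen, was 8.40-fold higher.

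Transporters of the ABC family were higher for 10 of 31 genes (32.3%, against 14.5% of all genes) and lower for 0. Abca8a, a lipid transporter, gave 223, 1851 and 16960 and was 76.1-fold higher, by a single probe set. Its relative Abca9 gave 492, 785 and 5231 (10.6-fold), but its other probe set reached only 0.53 on the log2 scale. Abca1, which exports cholesterol, gave 1003, 2773 and 4658 (4.64-fold), again with a second probe set within 2-fold, at 0.26. Abcc9, the sulfonylurea receptor of potassium channels, was at least 14.3-fold and the drug exporter gene Abcb1a at least 5.84-fold higher. In this family the signals of PDGFRa+Sca-1- cells lay between the compared arrays for 8 of the 10.

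Most solute carrier lists held more lower than higher genes. Amino acid transporters were lower for 9 of 32 (28.1%, against 12.2%) and higher for 2. Slc38a3, a glutamine transporter, gave 2728, 2601 and 7.29 and was at least 29.3-fold lower. Slc38a4 was at least 11.6-fold lower, and Slc7a5, which carries large neutral amino acids, gave 1588, 607 and 287 (5.54-fold). The glutamate transporter gene Slc1a3 was at least 5.84-fold higher, whereas Slc1a1 was at least 6.33-fold lower, with its highest probe set at -0.34. Metal transporters were lower for 7 of 25 and higher for 1, led by the zinc importer gene Slc39a8 (1285, 2136 and 87.6, at least 13.8-fold). Nucleotide sugar and nucleoside transporters were lower for 7 of 26 and higher for 1. Slc35d1, a carrier of the nucleotide sugars used for chondroitin, was 6.25-fold lower by 1 probe set and within 2-fold by the other, at -0.35. Slc26a2, which imports the sulfate of cartilage proteoglycans, gave 6746, 3146 and 835 (8.08-fold lower, 3 probe sets from -3.01 to -1.80). The citrate carrier gene Slc13a5 gave 6014, 9250 and 389 (15.5-fold lower, with its other probe set at -0.42).

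Organic ion and drug transporters were higher for 5 and lower for 3 of 14, and with arrays scaled to a common median for 3 and 3. The prostaglandin transporter gene Slco2a1 gave 178, 160 and 1684 (9.46-fold), although its 3 probe sets ran from 0.01 to 3.24. Slco3a1 gave 164, 472 and 2227 (13.5-fold), with all of its 3 probe sets past 2-fold. Slc22a4, a carrier of organic cations, was 7.07-fold lower, at 1606, 1058 and 227. From other lists, Slc16a9, a carnitine exporter, gave 98.9, 103 and 1258 (12.7-fold higher), with its lowest probe set at 0.67. The noradrenaline transporter gene Slc6a2 was 8.48-fold higher by one probe set and 0.39 on the log2 scale by the other. Mitochondrial carriers were within 2-fold for 34 of 40. Vacuolar ATPase subunits were within 2-fold for 16 of 18.

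Ion pumps and channels held the largest ratios of the class on the lower side. Fxyd2, a regulatory subunit of the sodium pump, gave 7975, 6564 and 169, a 47.2-fold difference seen by all 3 probe sets (-5.69 to -5.30). Fxyd3 gave 2374, 5589 and 147 (16.2-fold). The P-type ATPase list as a whole had 5 genes higher and 5 lower of 32. Atp8b1, a lipid flippase, was at least 13.9-fold higher. Trpv4, a calcium channel opened by stretch and osmotic change, gave 3777, 1439 and 121 (31.4-fold lower). Panx3, a pannexin of cartilage and bone, gave 11740, 16910 and 200 (58.8-fold lower), but its other probe set was within 2-fold at -0.98. Gja1, the main connexin of bone cells, was within 2-fold, at 20150, 24050 and 20470.

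Potassium channels were lower for 7 and higher for 2 of 30, and the lower count ran from 4 to 14 over the alternatives, the number compared from 13 to 80. Kcnma1, the large-conductance channel gene, gave 5830, 3012 and 792 (7.37-fold lower), with all 5 probe sets past 2-fold. Chloride channels and anoctamins were higher for 5 of 18 and lower for 0, among them the calcium-activated Ano1 (473, 1859 and 2858, 6.05-fold) and Ano6 (3.10-fold). Scn7a, a sodium channel gene, gave 15.7, 84.8 and 2043 and was at least 21.9-fold higher, with its lowest probe set at 0.18. Aqp1, a water channel, gave 612, 1803 and 6084 (9.95-fold higher), and the glycerol-passing Aqp3 was at least 4.36-fold lower.

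Among receptor tyrosine kinases, 11 of 38 were higher, the sort marker Pdgfra included, and 9 lower, and with arrays scaled to a common median these became 9 and 10. Pdgfrb, the second PDGF receptor, gave 914, 1352 and 8195 and was 8.96-fold higher, with its other probe set at 3.62. Axl, which binds Gas6, gave 301, 252 and 5230 (17.4-fold). Tek, the angiopoietin receptor also listed as an endothelial marker, was at least 9.53-fold higher while Pecam1 and Cdh5 were under the floor. On the lower side, Fgfr3, the FGF receptor of growth plate cartilage, gave 9249, 6636 and 430 (21.5-fold), and Epha2 gave 1861, 3449 and 223 (8.37-fold). Fgfr2 was 2.40-fold lower (other probe set -0.86) and Fgfr1 within 2-fold, at 2093, 4603 and 2207, so the FGF receptors differed among themselves. Egfr was 3.0-fold higher by its brightest probe set, but its 6 probe sets ran from -0.06 to 3.68.

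Cytokine receptors went both ways, with 12 of 31 higher and 10 lower, and with 7 higher and 9 lower without probe sets that may be shared. Lepr, the leptin receptor, gave 224, 490 and 2495 (11.1-fold higher), with all 3 probe sets past 2-fold. Il13ra1 was 4.49-fold, Ifngr1 3.78-fold and Il10rb 3.52-fold higher. The IL-36 receptor gene Il1rl2 was at least 10.5-fold higher. The receptors of the leukaemia inhibitory factor and oncostatin M, Lifr and Osmr, were 2.42-fold and 2.25-fold lower, at 4946, 4765 and 2042 and at 17340, 9007 and 7705, but each had a probe set within 2-fold, at -0.61 and 0.07. Il17ra was 3.44-fold lower, whereas Il17rd was 13.3-fold higher by one probe set and 0.61 on the log2 scale by the other. TNF receptors were lower for 5 of 14 and higher for 1. Tnfrsf21, the death receptor 6 gene, gave 3200, 2508 and 151 (21.2-fold), and osteoprotegerin, Tnfrsf11b, gave 5039, 6281 and 1672 (3.01-fold).

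Pattern recognition, scavenger and Fc receptors were higher for 12 of 23 genes (52.2%, against 14.5% of all genes) and lower for 3, and their median lay at 1.06 on the log2 scale. Besides Scara5, the RNA sensor gene Ifih1 gave 65.6, 144 and 1543 (at least 16.6-fold). Tlr4, the endotoxin receptor, was at least 13.2-fold higher, with its lowest probe set at 0.35, and Tlr3 5.37-fold, with its other probe set at 0.70. Scarb1, the HDL receptor, went the other way at 5391, 5906 and 233 (23.1-fold lower), and all 3 probe sets were at -4.53 to -4.51. Cd14 was 2.75-fold lower, at 1011, 1960 and 367. With the mean over probe sets the list's median was 0.37. Macrophage markers did not follow one direction, with 3 of 10 higher and 2 lower, a summed signal of 7843 against 13030 and Itgam, Tyrobp, Mrc1 and C1qa under the floor on all arrays; their part in these receptors was not tested.

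Chemokine receptors above the floor were few, and 4 of 8 were higher (50%, against 14.5% of all genes) and 0 lower. The count was 2 of 9 with the mean over probe sets and 2 of 5 without shared probe sets. Ackr1, the atypical receptor that binds many chemokines, gave 78.3, 103 and 4054 (at least 43.5-fold). Ackr3, which takes up CXCL12, gave 8479, 13930 and 19380 (2.29-fold). Cmklr1, a chemerin receptor, was 2.56-fold and Gpr1, which also binds chemerin, at least 13.1-fold higher. Lipid mediator receptors were higher for 5 of 16 and lower for 3. The prostaglandin receptors Ptger4 (4.20-fold), Ptgfr, Ptgir and Ptger3 (at least 5.62-fold, at least 5.15-fold and at least 4.51-fold) were higher, though one Ptger4 probe set had a ratio of 0.37 and one of Ptgfr 0.89. The sphingosine phosphate receptor genes S1pr3 and S1pr1 were 2.50-fold and at least 2.36-fold lower.

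Hormone and peptide receptors were higher for 7 of 24 and lower for 5. Calcrl, the receptor of CGRP and adrenomedullin, gave 8.20, 73.5 and 2319 (at least 24.9-fold), and its partner gene Ramp2 gave 207, 229 and 4037 (19.5-fold). Ramp1, the partner for CGRP, was 2.14-fold lower, at 259, 2367 and 121, so the partners differed in direction. The angiotensin receptor gene Agtr1a gave 143, 93.4 and 987 (6.92-fold higher), and the thrombin receptor gene F2r gave 3484, 3575 and 15230 (4.37-fold). Pth1r, the parathyroid hormone receptor, gave 11780, 21460 and 841 and was 14-fold lower. Bdkrb1, a bradykinin receptor, was 14.4-fold and the calcium sensor Casr 3.29-fold lower. Adgrg6, an adhesion receptor that binds collagen IV, gave 3359, 6230 and 325 (10.3-fold lower).

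Frizzled and LRP receptors were higher for 4 and lower for 7 of 27, and Notch and hedgehog receptors higher for 4 and lower for 2 of 9. Fzd4 gave 215, 231 and 1962 (9.11-fold higher), with its other probe set at 3.02, and Fzd9 gave 852, 255 and 108 (7.93-fold lower). Sort1, a sorting receptor, was 13.9-fold and the reelin receptor gene Lrp8 8.96-fold lower. For hedgehog, the co-receptor genes Cdon (3641, 2306 and 13900, 3.82-fold), Boc (3.63-fold) and Gas1 (2.77-fold) were higher, while the receptor and target gene Ptch1 gave 9405, 3156 and 2144 (4.39-fold lower) and Hhip was 3.78-fold lower. One Ptch1 probe set was within 2-fold at -0.53. Of the BMP and TGF-beta receptors, Acvrl1 was at least 9.89-fold and Acvr2a 4.77-fold higher, Acvr1b was 3.60-fold lower, and Tgfbr2 and Tgfbr3 were within 2-fold. The netrin receptor genes Unc5c (3270, 1007 and 139, 23.5-fold) and Unc5b (3.94-fold) were lower.

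**Figure D4:**
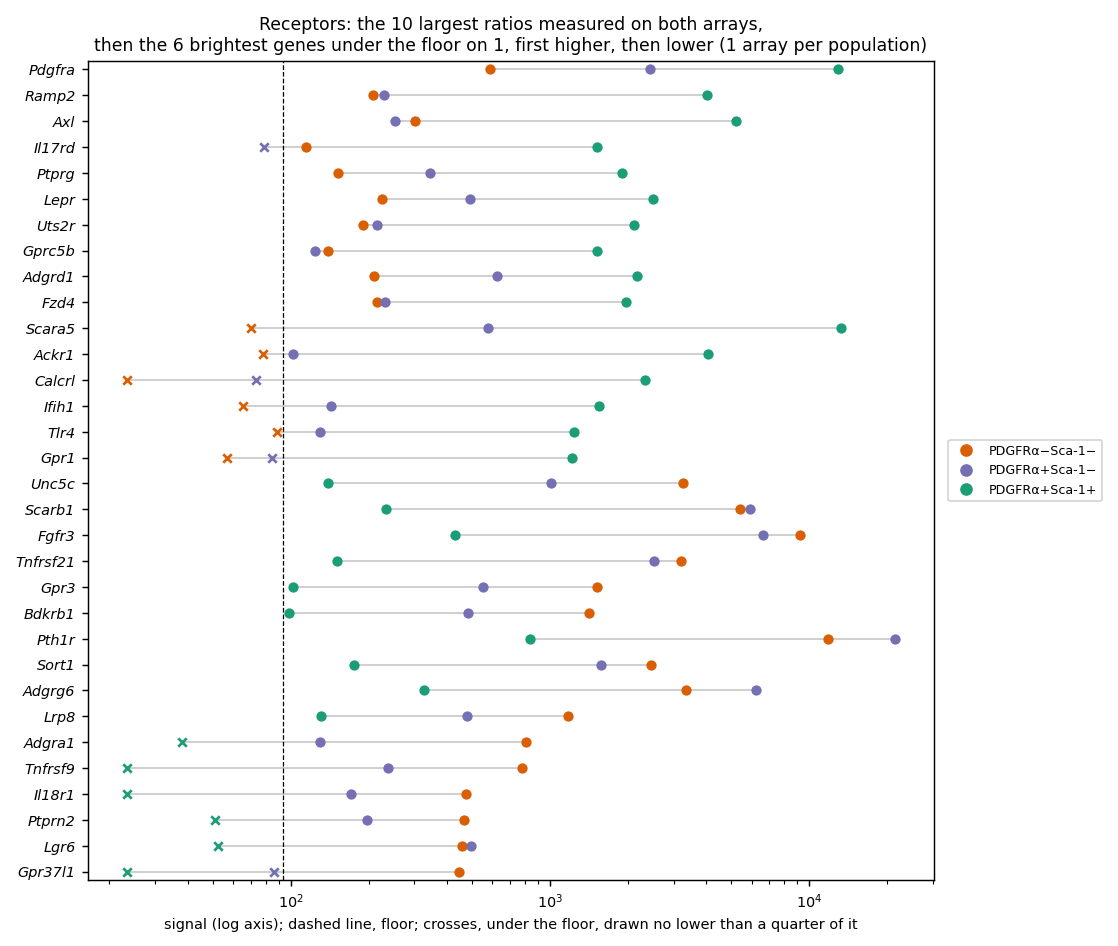
Signals (log axis) of 32 receptor genes on the 3 arrays: per direction the 10 largest ratios measured on both compared arrays and the 6 brightest genes under the floor on 1 of them, with crosses for signals under the floor of 93.2 (dashed line). The double-positive signal is the highest of the 3 in the upper 16 rows and the lowest in the other 16; Pdgfra, in the top row, is the marker the cells were sorted on.

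Among transcription factors, the early B-cell factors, which also mark marrow stroma, led the higher side. Ebf1 gave 189, 391 and 7381 (39.1-fold, 4 probe sets from 4.66 to 5.29), and Ebf2 gave 17.1, 97.6 and 4430 (at least 47.5-fold, 3 probe sets from 2.11). Ebf3 was 3.17-fold higher, with its lowest probe set at 0.68. Ebf1 is also a lymphocyte marker. Of the 3 such markers compared it alone was past 2-fold, and Cd79a, Ms4a1, Pax5 and Cd3e were under the floor on every array.

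Homeobox factors other than the Hox genes were higher for 15 of 62 (24.2%, against 14.5%) and lower for 7. Meox2, a factor of mesoderm, gave 390, 374 and 6554 (16.8-fold, other probe set 4.35). Prrx1, a factor of limb mesenchyme, gave 856, 1179 and 10080 (11.8-fold, 5 probe sets from 1.65 to 4.21), and Prrx2 was 7.60-fold higher. Zeb2, a repressor of epithelial genes, gave 258, 541 and 2501 (9.68-fold). Pax1, a factor of the vertebral column, was 9.63-fold lower, and Dlx5, a bone factor, 2.11-fold lower at 594, 713 and 281. Hox genes were within 2-fold for 10 of 13.

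Basic helix-loop-helix factors were higher for 12 of 54 (22.2%, against 14.5% of all genes) and lower for 4 (7.41%, against 12.2%), and with the mean over probe sets for 7 and 4 of 59. Ahr, the aryl hydrocarbon receptor, gave 58.4, 62.0 and 1307 and was at least 14-fold higher. Twist2 was at least 10.8-fold and Twist1 3.82-fold higher, and Mitf gave 395, 624 and 3111 (7.88-fold). The inhibitors of this family differed in direction: Id3 was 3.10-fold higher, Id1 2.47-fold lower and Id2 within 2-fold. Hif1a, the factor of oxygen sensing, was within 2-fold by its brightest probe set, at 18820, 17420 and 13050, but its 4 probe sets ran from -2.99 to -0.53. Id2 likewise had a probe set past 2-fold, at -1.30. Nuclear factor I genes Nfia (957, 815 and 7292, 7.62-fold) and Nfib (8.52-fold) were higher and Nfix was within 2-fold, although the 7 Nfib probe sets ran from -0.13 to 3.44.

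Sox and HMG-box factors were lower for 7 of 17 (41.2%, against 12.2%) and higher for 4. The cartilage factors Sox9 (6285, 6521 and 754, 8.33-fold), Sox6 (2555, 1755 and 510, 5.01-fold) and Sox5 (2161, 542 and 482, 4.48-fold) were all lower, with the highest of 5 Sox5 probe sets at -0.31. Lef1, a Wnt effector, was at least 11.2-fold lower by one probe set and within 2-fold by the other, at -0.69. Sox4 and Tcf7l1 were 2.62-fold and 2.63-fold higher, with the lowest Sox4 probe set at -0.13. With the mean over probe sets 4 members were lower and 1 higher. Chondrocyte marker genes, whose summed signal was 414500 in double-negative and 88330 in double-positive cells, were lower for 19 of 22, with 0 higher; their part in the Sox differences was not tested.

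Some factors known from bone cells, picked from several families whose lists had counts on both sides, were lower. The Ebf, Runx and Rel-domain list had 4 higher and 4 lower of 15, and the Stat, Smad, Tead and Mef2 list 5 higher and 4 lower of 25. Sp7 (osterix), a factor of osteoblasts, gave 1196, 1479 and 106 (11.3-fold), Runx3 1143, 675 and 27.4 (at least 12.3-fold) and the vitamin D receptor gene Vdr 638, 1246 and 106 (6.02-fold). Mef2c was 3.05-fold lower, at 2943, 8184 and 966, with all 5 probe sets past 2-fold. Hivep3, a zinc finger factor of osteoblasts, gave 16260, 13760 and 1101 (14.8-fold lower), although its 5 probe sets ran from -3.88 to -0.28. Nfatc2 (11040, 6188 and 1606) was 6.87-fold and Nfatc1 3.38-fold lower, each with a probe set near 0, at -0.02 and -0.15. Osteoblast and osteocyte markers were lower for 9 of 12 and higher for 1, with summed signals of 58210, 135800 and 21870. In 8 of the 9 the PDGFRa+Sca-1- signal was the highest of the 3. The part of such markers in these factors was not tested.

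Other families were smaller or mixed. Forkhead factors were lower for 7 of 25 (4 of 19 with the floor at the 67th percentile) and higher for 2, with Foxa3 at least 16-fold lower, Foxo1 3.17-fold lower (8201, 5579 and 2584) and Foxp1 5.70-fold higher by the highest of 8 probe sets, the lowest being 0.16. Batf3 and Batf, partners of AP-1, were at least 12.5-fold and at least 7.39-fold lower, and Fosl1 5.68-fold, at 5736, 4616 and 1009. The immediate early genes Fos and Egr1 were within 2-fold, at 24640, 25490 and 23350 and at 29330, 31860 and 28740. Vgll3, a co-factor of Tead proteins, gave 24.5, 77.4 and 1984 (at least 21.3-fold higher, 3 probe sets from 3.42). Eya4 was at least 13.1-fold higher. Tbx4, a factor of the hindlimb, was 7.78-fold higher, and Osr2 6.94-fold. Nuclear receptors were within 2-fold for 23 of 28.

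**Figure D5:**
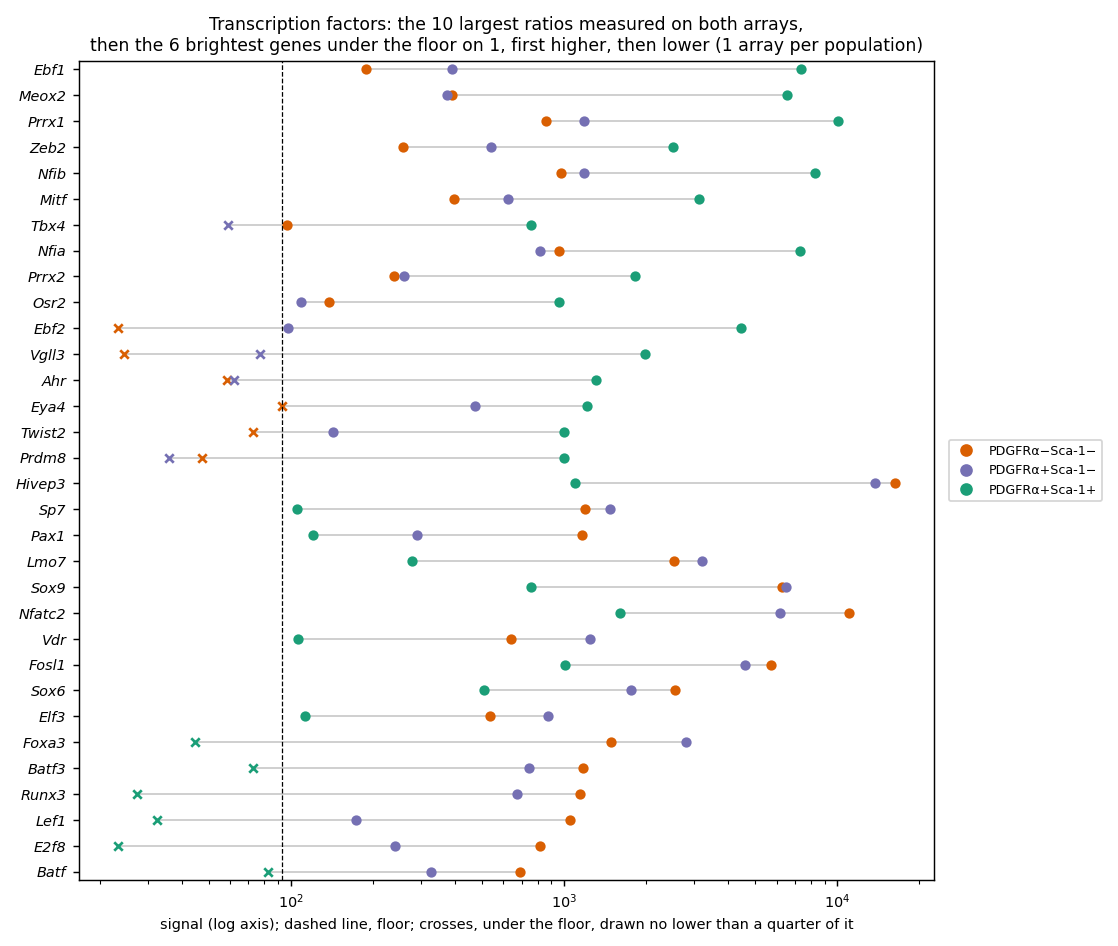
Signals (log axis) of 32 transcription factor genes on the 3 arrays, chosen as for the receptors, with crosses for signals under the floor of 93.2 (dashed line). Ebf1, from 189 to 7381, heads the higher genes, and Hivep3, from 16260 to 1101, the lower ones.

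Genes of the cell cycle were lower in double-positive cells for 20 of 30 (66.7%, against 12.2% of all genes), while 0 were higher and 10 lay within 2-fold. The median was -1.43 on the log2 scale. The lower count ran from 14 of 30 (mean over probe sets) to 23 of 30 (floor at the 33rd percentile). All 30 were above the floor in double-negative cells and 20 in double-positive cells, so the ratios of the rest are bounds. Those genes could not have come out higher. Top2a, the topoisomerase of mitotic chromosomes, gave 1838, 302 and 141 (13-fold), and Mki67 gave 1859, 278 and 320 (5.82-fold). The repressor genes E2f8 (817, 240 and 8.19, at least 8.77-fold) and E2f7 (at least 2.87-fold) of the E2F family lay on the same side. The part of dividing cells in the lower nucleotide, folate and sterol enzymes was not tested.

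Marker lists of other cells were also read. Their signals are RNA levels and do not measure the makeup of the sorted fractions. Summed signals of fibroblast and adventitial genes were 94920 in double-negative and 279600 in double-positive cells, and 16 of 22 were higher and 0 lower. Those of reticular stroma were 12760 and 107900, with 14 of 16 higher and 1 lower. Erythroid genes summed to 8657 and 2082, with 5 of 10 lower, most of the sum being Tfrc, and Hba-a1 and Alas2 under the floor. Of the 10 compared, all were above the floor in double-negative cells but only 4 in double-positive cells. The other 6 were compared only through the double-negative array and could not have come out higher. Granulocyte genes summed to 923 and 3648, and 7 of 10 were higher (3 of 5 with the floor at the 67th percentile), led by Mpo (44.9, 712 and 655), while Ptprc was under the floor. All 10 were above the floor in double-positive cells but only 2 in double-negative cells. The other 8 were compared only through the double-positive array and could not have come out lower. Endothelial genes summed to 1887 and 2924. Of the 8 compared, 3 were higher (37.5%), Tek, Plvap (103, 187 and 446, 4.32-fold) and Eng (306, 347 and 752, 2.46-fold), and Erg was at least 5.66-fold lower, while Pecam1, Cdh5, Vwf and Flt1 were under the floor. Pericyte and smooth muscle genes were higher for 4 and lower for 5 of 13, with Rgs5 8.14-fold higher (other probe set 0.40) and Tagln 11.2-fold lower. Adipocyte genes were within 2-fold for 5 of 7; Lpl was the higher and Car3 the lower one, both given above. Skeletal muscle genes summed to 2602 and 755, with 3 of 6 lower and 0 higher, led by Tnni2 (at least 13.9-fold). These 6 were all above the floor in double-negative cells but only 2 in double-positive cells. The other 4 were compared only through the double-negative array and could not have come out higher. The part of these cells in the class counts was not tested.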

How the data were processed

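Expression was measured in 3 sorted populations with 1 array each; the double-positive and double-negative arrays were compared. The authors deposited linear intensities, 1 value per probe set and array, computed with MAS5 per the submitters' processing notes; version, detection calls and filters: not given in the sources used here. Array number limits the precision. After 64 control probe sets were set aside, arrays were scaled to a common 2% trimmed mean, signals under 93.2 were raised to it, and ratios were taken as log2. Of 45037 probe sets, 34945 had 1 symbol, 932 several and 9160 none; only the first kind was used. Each of 18193 genes took its probe set of highest mean log2 signal. Genes were counted at 2-fold. No replicate existed, so no test was run. Members and the 91 lists, written by symbol or symbol pattern, were chosen with earlier results of these data known. Named were the gate markers, in each direction the 20 genes of largest ratio above the floor on both arrays and the 20 brightest bounds, and per list up to 4 higher, 4 lower and 2 bright genes within 2-fold; added after their values were seen were most cholesterol genes, Abca1, Abcb1a, Dlx5, Egfr, F2r, Fgfr2, Gstm1, Hk1, Hk2, Hsd11b2, Id3, Ifngr1, Il10rb, Lifr, Mki67, Nqo1, Osmr, Pdk1, Prrx2, Ptger4, Rrm2, Tlr3 and marker genes. Cross-hybridisation between gene copies cannot be seen in these values. The counting code was run on simulated data in which 200 genes well above the floor were changed by a known fold. The noise set there was below the SD between probe sets, so that run does not measure the error of these calls. Promoters came from RefSeq on GRCm38.p6, with no coordinates of probe sets used. Alternatives were floors at the 33rd and 67th percentile, median and quantile scaling, the mean over probe sets, omission of shared probe sets (suffixes s, x and a) and 32 added without a floor. Python 3.11.15, pandas 2.3.3, numpy 2.4.6 and scipy 1.17.1 were used.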

Additional observations from a re-analysis of the deposited data

How the results depend on the processing

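Over 7 alternatives the number of genes higher ran from 1206 (mean over probe sets) to 2006 (floor at the 33rd percentile) and the number lower from 989 (floor at the 67th percentile) to 1895 (floor at the 33rd percentile). Scaling to a common median moved the median log2 ratio of all genes from 0.03 to -0.08 and the counts to 1463 higher and 1664 lower, so 46.8% of the differing genes were higher in place of 54.3%; quantile normalization gave 1676 and 1447. With the floor at the 67th percentile the count of transporters higher was 35 in place of 56 and that of receptors lower 43 in place of 65; fewer genes were compared there. The other class counts stayed within 1.5 times under all 7. Of 4712 recomputed log2 ratios of 695 named genes, 4115 moved by less than the SD between probe sets, 596 by more, and 1 reversed: Pfkl was 0.58 without shared probe sets. No paired analysis was possible because each population had 1 array and no replicate number. Single arrays, a dim-signal floor and differing 3' to 5' ratios limit every value; ratios near 2-fold and bounds are the least certain.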

Other observations

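Outside the listed classes, the largest ratios measured on both arrays included secreted and matrix genes. Dkk2, a Wnt antagonist, gave 135, 237 and 6683 in the order double-negative, PDGFRa+Sca-1-, double-positive (49.5-fold higher by its 1 probe set). The laminin gene Lamb1 gave 207, 797 and 8579 (41.4-fold), but its 3 probe sets lay between 0.29 and 5.37 on the log2 scale. Tnxb, a tenascin of loose connective tissue, gave 334, 646 and 12630 (37.8-fold), and Ltbp4, which binds latent TGF-beta, gave 183, 326 and 7113 (39.0-fold). Vegfc, a growth factor of lymphatic vessels, was 36.6-fold higher with 3 probe sets from 3.91 to 5.19. Among the lower genes, Serpina1b gave 15640, 3739 and 376 (41.6-fold) and Serpina1c 6721, 2691 and 181 (37.2-fold); these antitrypsin genes are near-identical copies whose probe sets may share signal. Notum, which inactivates Wnt proteins, gave 1897, 224 and 88.8 (at least 20.4-fold lower), and Wnt4 gave 2351, 2222 and 62.4 (at least 25.2-fold). Rspo2, a Wnt agonist, was at least 39.0-fold higher by its brightest probe set and at -0.03 by the other.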
